A study of Mus musculus with 21 samples.

Results

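The immediate early genes Fos, Fosb, Jun, Junb, Egr1, Ier2, Dusp1, Btg2, Klf6 and Zfp36 were followed in sorted mouse Paneth cells. They were chosen by name, as genes of the fast transcriptional response that tissue dissociation is also known to induce, and each symbol matched 1 Ensembl identifier in the deposited count table. They are 10 of the 55414 genes in the table, and all 10 were among the 13070 genes with enough counts to be tested. The data comprised 21 bulk RNA-seq libraries from C57BL/6J mice, made from Paneth cells sorted by FACS out of the small intestine. Mice drank Milli-Q (purified) water or zinc sulfate water for 7 weeks, at a dose that the labels give as 200 mM ZnSO4. Each water was given in 3 microbiome contexts. Specific pathogen free (SPF) mice gave 3 libraries on Milli-Q and 3 on zinc water. SPF mice that also received broad-spectrum antibiotics over the last 3 weeks (antibiotics mice) gave 4 on each water. Germ-free mice gave 3 on Milli-Q and 4 on zinc water. Age and sex are not given in the labels, which call the libraries of a group biological replicates. Every library came from dissociated and sorted tissue, so any share of these transcripts that arose during cell isolation cannot be told apart from the level in the animal.

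Immediate early genes are transcribed within minutes of a stimulus without the need for new protein. Mitogen and stress kinases of the ERK, p38 and JNK cascades activate transcription factors that the cell already holds, among them SRF, its ternary complex partners and CREB. The response is brief: products such as Zfp36 promote the decay of mRNAs with AU-rich elements, and Dusp1 removes phosphate from the activated kinases and so ends the signal. Fos, Fosb, Jun and Junb encode subunits of the AP-1 transcription factor. Egr1 and Klf6 encode zinc finger transcription factors, Ier2 encodes a nuclear protein, and Btg2 encodes an antiproliferative cofactor of mRNA deadenylation. In the gut these genes respond to growth factors, wounding, inflammation and handling of the tissue.

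The sequence around the start site is shown for 4 members because their windows hold letters of known factor motifs, and because 3 of them (Fos, Jun and Dusp1) differed between germ-free and antibiotics mice while Btg2 differed in no comparison. RefSeq promoters of build GRCm38.p6, a different build from that of the count table, were at hand for 8 of the 10 members and run from 250 bases before to 50 after the start. Capitals mark the CRE (TGACGTCA), its core (TGACGT), the related TGACATCA and the TATA box (TATAAA). The Fos window is chr12:85473640-85473939 (plus strand), the Jun window chr4:95052173-95052472 (minus), the Dusp1 window chr17:26508423-26508722 (minus) and the Btg2 window chr1:134079106-134079405 (minus), each printed 5′ to 3′ on the strand of its gene.
Fos: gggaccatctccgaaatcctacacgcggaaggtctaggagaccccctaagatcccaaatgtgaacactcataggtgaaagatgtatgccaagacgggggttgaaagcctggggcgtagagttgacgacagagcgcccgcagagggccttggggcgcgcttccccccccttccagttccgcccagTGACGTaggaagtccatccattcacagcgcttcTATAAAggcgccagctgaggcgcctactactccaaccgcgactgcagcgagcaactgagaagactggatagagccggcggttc
Jun: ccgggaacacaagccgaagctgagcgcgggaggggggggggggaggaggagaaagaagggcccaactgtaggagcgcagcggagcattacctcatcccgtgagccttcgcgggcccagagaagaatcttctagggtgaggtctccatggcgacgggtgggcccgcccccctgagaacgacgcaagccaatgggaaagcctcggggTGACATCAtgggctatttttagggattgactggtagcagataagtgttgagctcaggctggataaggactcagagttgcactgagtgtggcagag
Dusp1: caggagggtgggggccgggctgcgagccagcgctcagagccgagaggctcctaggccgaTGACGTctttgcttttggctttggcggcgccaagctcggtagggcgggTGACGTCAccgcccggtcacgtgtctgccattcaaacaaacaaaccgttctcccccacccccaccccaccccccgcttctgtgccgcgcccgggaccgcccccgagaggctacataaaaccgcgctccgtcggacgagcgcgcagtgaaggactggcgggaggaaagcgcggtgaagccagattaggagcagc
Btg2: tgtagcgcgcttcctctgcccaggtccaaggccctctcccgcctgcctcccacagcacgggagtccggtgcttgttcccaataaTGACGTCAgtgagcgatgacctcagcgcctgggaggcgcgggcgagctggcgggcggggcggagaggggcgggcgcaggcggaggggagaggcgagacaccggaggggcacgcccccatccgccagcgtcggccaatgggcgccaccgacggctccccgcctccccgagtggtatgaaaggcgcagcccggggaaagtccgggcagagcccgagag

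Each motif was searched on both strands, other than the TATA box, which was searched on the strand of the gene. The CRE was found in 2 of the 8 members, in Dusp1 from position -143 and in Btg2 from position -166 relative to the start, and in 1.79% of the 32851 promoters of the RefSeq table. Its core, which every CRE also contains, was found in Fos, Dusp1 and Btg2, and in 7.51% of all promoters. The related letters TGACATCA were found in Jun (position -45) and Klf6 (position -119), and in 3.62% of all promoters. The AP-1 motif TGANTCA, found in 7.81% of all promoters, was in 0 of the 8 members. A CArG box, the motif of SRF, was found in Zfp36 and in 1.63% of all promoters. Egr1 and Ier2 had no promoter at hand, and sites outside the windows were not searched for any member. TATAAA was found in Fos (position -33), in Junb (position +1, at the annotated start) and in 8.32% of all promoters.

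Depth ranged from 9888174 to 16896714 counts per library, and 13747 to 18072 genes had counts. Values are CPM, the usual unit of counts relative to the size of the library, scaled by TMM factors, which compare libraries by the bulk of their genes, unless another scale is named. The factors ran from 0.522 to 1.49. The α-defensin (Defa) genes took 39.3 to 44.5% of counts in germ-free libraries and 24.1 to 36.4% in the others. The sorted cells carried the label's markers: 7 Paneth cell genes, among them Lyz1, Defa24 and Mmp7, summed to 169000 to 821700 TMM-scaled CPM per library. The highest sum was in germ-free zinc replicate 1, which also had the lowest factor (0.522), so these sums are not shares of counts. The sum of 6 enterocyte markers ran from 103 to 1433 CPM and that of 5 goblet markers from 1415 to 5376 CPM. The 8 immune markers summed to at most 20.3 CPM, the 4 stromal markers to at most 0.775 CPM and the 2 red cell markers to at most 0.581 CPM, with S100a8, Col3a1 and Hbb-bs at 0 counts in every library. Replicate 1 of the germ-free mice on zinc water had a score of 79.4 on the first principal component, on which the other 20 libraries ran from -43.9 to 37.3, and SPF zinc replicate 1 held 6228 counts of Xist against 0 to 34 in the other 20 libraries.

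All members were well expressed. Scaled to transcript length, the mean over the 21 libraries was highest for Fos (87.7 CPM per kilobase), Ier2 (75.3) and Jun (71.6). Btg2 (38.6), Egr1 (37.1), Junb (36.7) and Zfp36 (31.1) followed, and Fosb (10.4), Dusp1 (8.54) and Klf6 (6.07) were lowest on this scale. The lowest count of any member in any library was 34, for Fosb. Summed over the 10 members, 0.162 to 0.250% of counts fell on them in antibiotics mice on Milli-Q water and 0.0330 to 0.0551% in germ-free mice on zinc water. These shares depend on the other genes of a library. On the TMM scale the sums were 1222 to 1715 CPM and 454 to 693 CPM in the same groups, a narrower gap.

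The 6 groups were compared first. In edgeR's quasi-likelihood test of any difference between groups, 9 of 10 members passed an adjusted p of 0.05, where 49.3% of all genes tested passed. Btg2 was the exception (adjusted p = 0.974). For the other members the adjusted p was lowest for Klf6 (0.00445), Dusp1 (0.00509), Ier2 (0.00512) and Fos (0.00521), followed by Fosb (0.00825), Egr1 (0.0118), Jun (0.0124) and Junb (0.0128). Zfp36 passed narrowly (0.0442), and that call was lost in 10 of the 21 fits that left out a single library, with an adjusted p of up to 0.100. Antibiotics mice on Milli-Q water had the highest group mean for 8 members and germ-free mice on zinc water the lowest for the same 8; the others were Btg2 and Klf6. Of the 50 pairs of groups that neighbour each other in the order of a member's means, 0 were free of overlap between their libraries, so the order of neighbouring groups was within their spread.

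**Figure D1:**
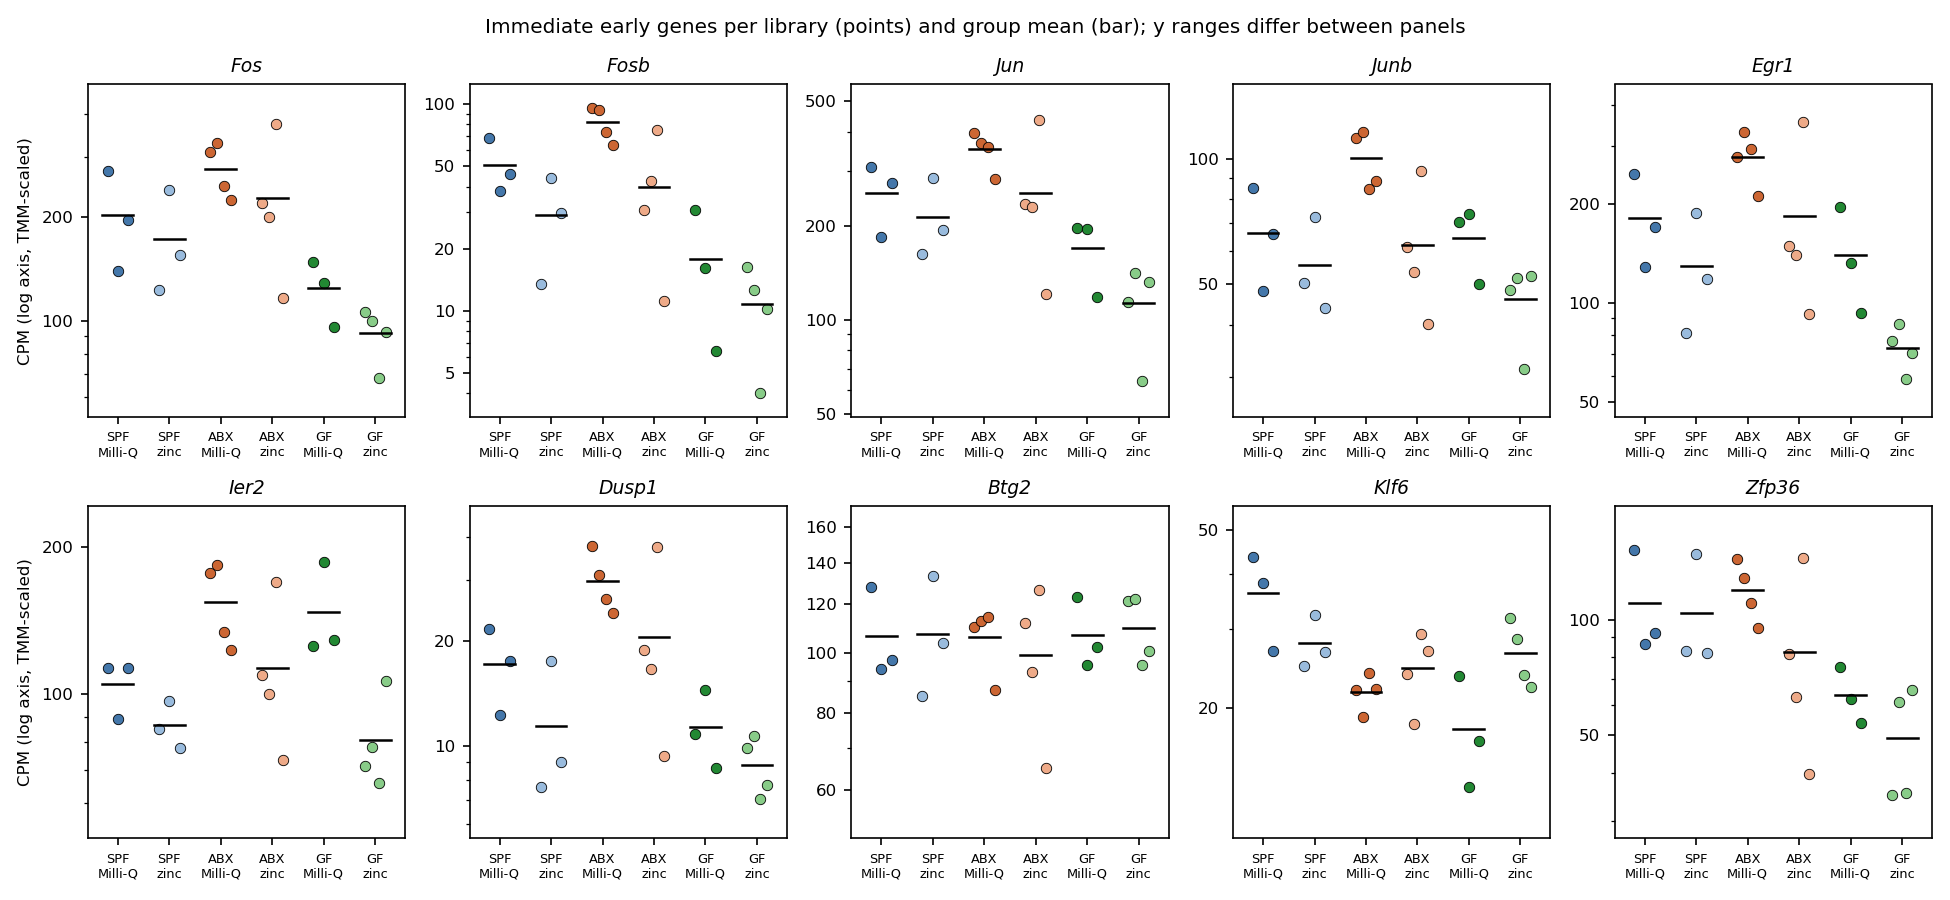
CPM (TMM-scaled, log axis) of each member in every library, by group, with a bar at the group mean; ABX stands for antibiotics and GF for germ-free. Antibiotics mice on Milli-Q water have the highest group mean for 8 genes, with libraries that overlap those of other groups. Germ-free libraries lie low for Fos, Fosb, Jun and Dusp1, and Btg2 is level over the groups.

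Fos, the AP-1 subunit that pairs with Jun proteins, stood at 224, 247, 310 and 330 CPM in antibiotics mice on Milli-Q water and at 117, 201, 220 and 375 CPM on zinc water. In SPF mice it was 140, 197 and 274 CPM on Milli-Q and 123, 155 and 241 CPM on zinc water. In germ-free mice it was 95.9, 129 and 148 CPM on Milli-Q and 68.2, 92.8, 99.9 and 106 CPM on zinc water. All germ-free libraries were below all antibiotics libraries on the same water, while SPF libraries overlapped with antibiotics libraries. The group means ranged from 278 ± 50.3 CPM (SD, n = 4) in antibiotics mice on Milli-Q water to 91.8 ± 16.7 CPM (SD, n = 4) in germ-free mice on zinc water, which is a 3.02-fold span.

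Fosb, a related AP-1 subunit, varied most. It stood at 63.2, 73.3, 94.2 and 95.8 CPM in antibiotics mice on Milli-Q water and at 11.2, 30.7, 42.7 and 75.3 CPM on zinc water. In SPF mice it was 37.9, 45.8 and 69.0 CPM on Milli-Q and 13.5, 29.8 and 44.1 CPM on zinc water. In germ-free mice it was 6.43, 16.1 and 30.8 CPM on Milli-Q and 4.01, 10.2, 12.7 and 16.3 CPM on zinc water. The highest group mean was 7.56 times the lowest, and the highest library 23.9 times the lowest.

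Jun and Dusp1 showed the same ranking at both ends. Jun was 282 to 396 CPM in antibiotics mice on Milli-Q water (median 363) and 63.8 to 141 CPM in germ-free mice on zinc water (median 124). Its range was 184 to 309 CPM in the SPF group on Milli-Q, 162 to 285 CPM in SPF mice on zinc, 121 to 435 CPM in antibiotics mice on zinc and 119 to 196 CPM in germ-free mice on Milli-Q water. Dusp1, the phosphatase that inactivates MAP kinases, stood at 24.1, 26.4, 31.1 and 37.7 CPM in antibiotics mice on Milli-Q water and at 7.08, 7.76, 9.88 and 10.7 CPM in germ-free mice on zinc water. On Milli-Q water the germ-free values of Dusp1 were 8.68, 10.9 and 14.5 CPM, below the lowest antibiotics library.

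Junb, Egr1 and Ier2 were likewise highest in antibiotics mice on Milli-Q water, with means of 100.1 ± 16.0, 279 ± 49.4 and 155 ± 30.4 CPM (SD over the 4 libraries). The corresponding means on zinc water without a microbiota were 46.1 ± 9.94, 73.2 ± 11.7 and 80.5 ± 18.1 CPM (SD over the 4 libraries). Ier2 differed from the AP-1 genes in that germ-free mice on Milli-Q water were its second highest group, at 147 ± 34.4 CPM (SD, n = 3), above SPF mice on that water at 105 ± 13.9 CPM (SD, n = 3). Zfp36 stood at 119.5 ± 21.1 CPM in antibiotics mice on Milli-Q water and at 49.3 ± 16.4 CPM in germ-free mice on zinc water (SD, n = 4 each).

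Btg2 and Klf6 did not share this order. Btg2 lay between 99.1 ± 26.6 CPM (SD, n = 4, antibiotics mice on zinc water) and 110 ± 14.0 CPM (SD, n = 4, germ-free mice on zinc water), a 1.11-fold span of the means. For Klf6 the SPF group on Milli-Q water was highest (26.8, 38.2 and 43.5 CPM) and lowest in germ-free mice on that water (13.3, 16.9 and 23.6 CPM). Its other means were 28.0 ± 3.91 CPM (SD, n = 3) in SPF mice on zinc, 21.8 ± 1.98 and 24.6 ± 4.66 CPM (SD, n = 4 each) in antibiotics mice on Milli-Q and zinc, and 26.6 ± 4.36 CPM (SD, n = 4) in germ-free mice on zinc water.

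Most calls of single members fell between germ-free and antibiotics mice, a comparison that was added after the values had been seen. It shares its groups with the comparisons against SPF mice and with those of zinc water, so the results are not independent of each other. On Milli-Q water, 4 of 10 members were lower in germ-free than in antibiotics mice and 0 were higher, where 21.9% of all genes passed. Fosb fell by 2.21 ± 0.63 on the log2 scale (SE, adjusted p = 0.0214 in edgeR), Dusp1 by 1.40 ± 0.39 (adjusted p = 0.0159), Fos by 1.16 ± 0.33 (adjusted p = 0.0198) and Jun by 1.04 ± 0.36 (adjusted p = 0.0481). Junb, Egr1 and Zfp36 had log2 fold changes of -0.63, -0.99 and -0.91 that did not pass (adjusted p of 0.0887, 0.0950 and 0.0988 in edgeR). For each of these genes every germ-free library was below every antibiotics library. How many of all genes have groups without overlap was not determined, here or in the other comparisons. Ier2 (-0.07 ± 0.22, SE), Btg2 (0.01 ± 0.18) and Klf6 (-0.28 ± 0.19) did not pass. The median log2 fold change was -0.95 over the members and -0.02 over all genes tested.

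On zinc water, 5 of 10 members were lower in germ-free than in antibiotics mice and 0 were higher, where 12.9% of all genes passed. Fosb fell by 1.92 ± 0.59 (SE, adjusted p = 0.0430 in edgeR), Egr1 by 1.33 ± 0.38 (adjusted p = 0.0291), Fos by 1.31 ± 0.31 (adjusted p = 0.00893), Dusp1 by 1.22 ± 0.36 (adjusted p = 0.0337) and Jun by 1.17 ± 0.33 (adjusted p = 0.0277). The median was -0.95 over the members and -0.000484 over all genes. Of the 5 called members, Fos and Egr1 had germ-free and antibiotics libraries that did not overlap. For the other 3, antibiotics zinc replicate 4 lay within the germ-free range.

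Single libraries decided several of these calls. On Milli-Q water the call of Fos was lost without germ-free replicate 2 or 3 (adjusted p = 0.0685 and 0.0881), that of Fosb without the same libraries (0.0844 and 0.0899), and that of Dusp1 without replicate 3 (0.0771). Jun kept its call in 8 of 21 such fits. On zinc water only Fos kept its call in every fit that left out a library (adjusted p of up to 0.0258 in edgeR). Leaving out antibiotics zinc replicate 3, the library with the highest levels, ended the calls of Jun (0.0813), Egr1 (0.0860), Dusp1 (0.0945) and Fosb (0.132), and those 4 calls were also lost without germ-free zinc replicate 1 (adjusted p of 0.0531 to 0.0619) or replicate 3 (0.0586 to 0.0958). Egr1 and Dusp1 (0.0615 and 0.0870) were lost without replicate 4 as well, and Fosb kept its call in 8 of 21 fits. Fit on the 2 groups alone, 7 members passed on Milli-Q water, where 3266 of 12444 genes did. On zinc water 1 member, Fos, passed in such a fit, where 904 of 11757 genes did.

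Counts were also corrected for the GC content and length of the transcripts, a setting added after the values were seen, and the median over the members was then -1.03 on Milli-Q and -1.01 on zinc water. On Milli-Q water 5 members then passed, with Fos at -1.33, Dusp1 at -1.66 and Junb at -0.98. On zinc water 6 passed, with Ier2 (-0.64) added. With this correction 2516 of 13070 genes passed on Milli-Q and 1849 on zinc water. Scaled by library totals in place of TMM factors, all 10 members were lower in germ-free mice on both waters, but the median of all genes then stood at -1.05 on Milli-Q and -0.74 on zinc water. Relative to that shift Btg2 (-1.02 and -0.60) was level with other genes, while Fos (-2.21 and -2.07) and Fosb (-3.25 and -2.71) were not. Mapk3, which encodes the kinase ERK1, was higher in germ-free mice by 0.73 ± 0.12 on Milli-Q and 0.48 ± 0.11 log2 units on zinc water (SE, adjusted p of 0.000163 and 0.00624 in edgeR). Markers of cell types moved with these groups, and their part in the result was not tested. The Paneth marker sum was 447900 to 821700 CPM in germ-free and 169000 to 320100 CPM in antibiotics mice, with 6 of 7 markers higher on each water. TMM factors were 0.522 to 0.834 in germ-free and 1.08 to 1.49 in antibiotics libraries, so the gap in these sums is wider than in shares of counts. Enteroendocrine markers summed to 21.2 to 40.6 and 40.7 to 137 CPM, with 3 of 4 lower on Milli-Q and 1 on zinc water. Tuft markers summed to 65.4 to 87.3 CPM in germ-free and 124 to 235 CPM in antibiotics mice on Milli-Q water, with 2 of 3 lower, and to 60.2 to 134 and 75.1 to 175 CPM on zinc water, with 0 called. Of 5 goblet markers, 3 were lower on Milli-Q and 1 on zinc water, although the goblet sums overlapped. Mitochondrial counts took 0.599 to 1.21% in germ-free and 1.84 to 2.67% in antibiotics mice on Milli-Q water, without overlap, and 1.19 to 2.78% and 1.88 to 3.75% on zinc water, and their part was not tested. Whether fewer cells of a type or less RNA per cell lay behind a lower level cannot be told apart in bulk libraries.

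**Figure D2:**
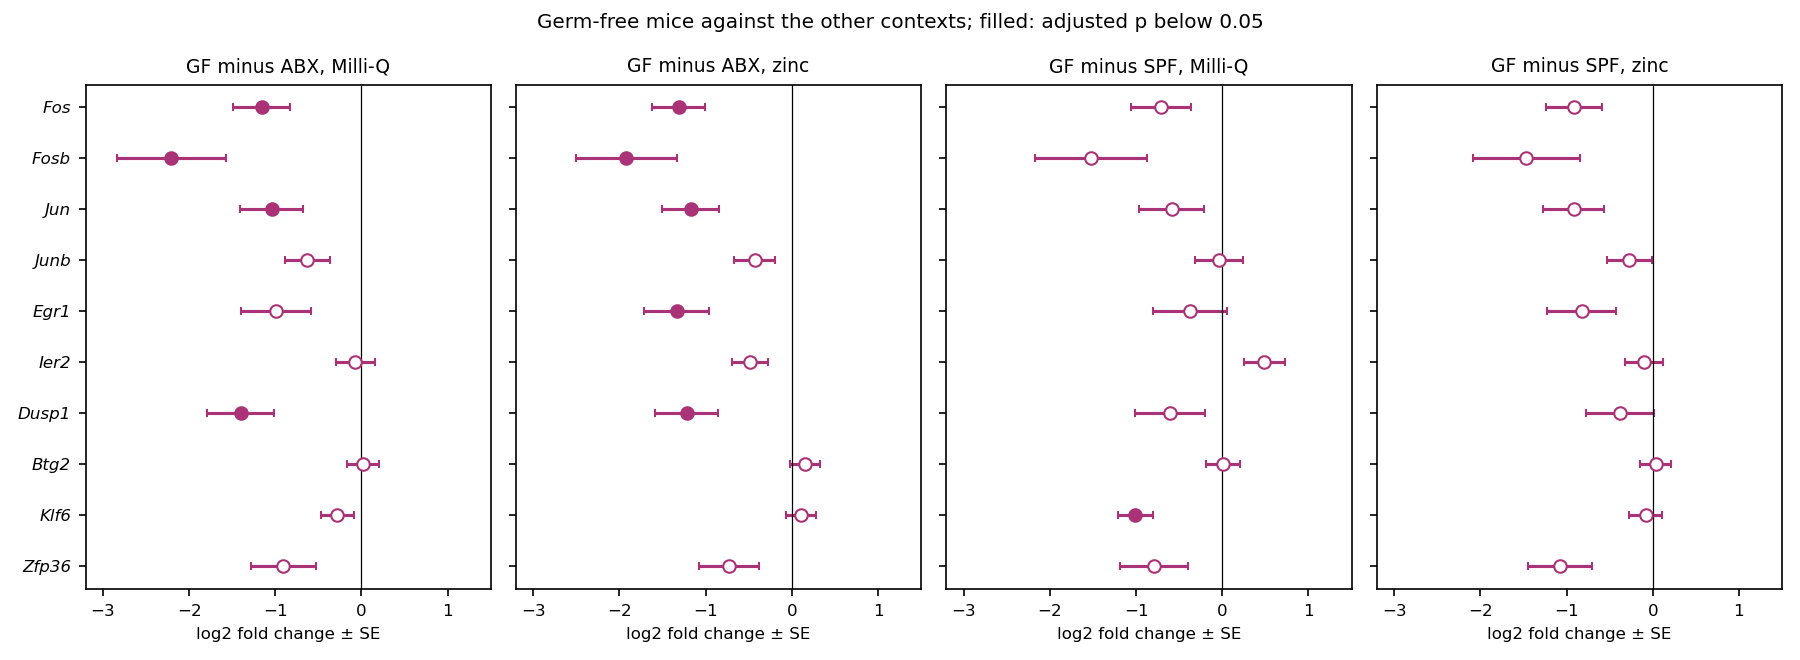
Log2 fold change ± SE of each member in germ-free (GF) against antibiotics (ABX) and SPF mice on each water, with filled points for adjusted p below 0.05 in edgeR. In germ-free against antibiotics mice 4 members passed on Milli-Q and 5 on zinc water, all lower in germ-free mice, against 1 (Klf6) and 0 in germ-free against SPF mice.

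Against SPF mice, 8 members had a negative log2 fold change in germ-free mice on Milli-Q water and 9 on zinc water, but few passed. On Milli-Q water 1 of 10 members passed, where 24% of all genes did, and on zinc water 0 of 10 passed, where 5.76% did. Klf6 was that gene, lower by 1.01 ± 0.21 on the log2 scale (SE, adjusted p = 0.00105 in edgeR), with no overlap between the groups and a call that held in all 21 fits without a single library (adjusted p of up to 0.0137) and after the GC and length correction (-0.67, adjusted p = 0.00846). On Milli-Q water Paneth markers summed to 628700 to 652400 CPM in germ-free and 203400 to 319400 CPM in SPF mice (6 of 7 higher), and enteroendocrine markers to 21.2 to 29.8 and 75.0 to 156 CPM (3 of 4 lower). Mitochondrial counts took 0.599 to 1.21% and 1.89 to 2.16% there, and none of these ranges overlapped. The marker sums are TMM-scaled CPM and not shares of counts. The part of these markers and counts in the change of Klf6 was not tested. Fosb on Milli-Q water had a log2 fold change of -1.53 ± 0.65 (SE) and Fos on zinc water of -0.91 ± 0.32, with adjusted p of 0.101 and 0.0993. Zfp36 stood at -0.79 ± 0.40 and -1.08 ± 0.37 on the 2 waters (adjusted p of 0.161 and 0.0925). Ier2 had the opposite sign on Milli-Q water (0.49 ± 0.24), which the GC and length correction brought to -0.05. The median over the members was -0.60 on both waters, against -0.03 and 0.00201 over all genes. At an unadjusted p under 0.05, Fosb and Klf6 passed on Milli-Q water, where 36.9% of all genes did, and Fos, Fosb, Jun and Zfp36 on zinc water, where 23.2% did. Without antibiotics zinc replicate 3, Fos and Zfp36 were called on zinc water (0.0426 and 0.0366), as they were without replicate 4 of that group (0.0488 and 0.0497). Those antibiotics libraries are not in the groups compared but share the fit. On Milli-Q water Fosb was called without germ-free replicate 1 (0.0461). Over the fits without a single library, 69 to 1626 of all genes were called on zinc and 1635 to 3562 on Milli-Q water. The shares in the fits named here are not given.

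Antibiotics mice were compared with SPF mice on each water. On Milli-Q water 0 of 10 passed, where 0.115% of all genes did, and on zinc water 0 of 10, where 8.65% did. On Milli-Q water 8 members had a higher mean log2 level after antibiotics, with a median of 0.51 over the members against -0.00745 over all genes. Dusp1 had the largest positive value (0.80 ± 0.36, SE, adjusted p = 0.612), and its antibiotics libraries all lay above the SPF libraries. Klf6 lay in the other direction (-0.73 ± 0.18, adjusted p = 0.161 in edgeR). Klf6 was called only without SPF Milli-Q replicate 3 (-0.90, adjusted p = 0.0373) or without the filter on low counts. In the fit without that replicate 47 of all genes were called. At an unadjusted p under 0.05 the members Junb, Ier2, Dusp1 and Klf6 passed on Milli-Q water, where 7.92% of all genes did, and Dusp1 on zinc water, where 25.6% did. On zinc water the median was 0.32 over the members and -0.0017 over all genes. DESeq2 called 0 members on either water, whereas edgeR without the filter on low counts called 6 on Milli-Q and 2 on zinc water. Without that filter 406 of 24548 genes were called on Milli-Q and 1491 on zinc water.

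Zinc water was compared with Milli-Q water within each context. In SPF mice 0 of 10 members passed, where 0.0995% of all genes did, and 0 had an unadjusted p under 0.05, where 4.79% did. Their log2 fold changes ran from -0.80 ± 0.61 (SE) for Fosb to 0.01 ± 0.20 for Btg2, with a median of -0.27 against -0.02 over all genes. The result was the same without SPF zinc replicate 1, the library with Xist counts. DESeq2 called 0 members as well.

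After antibiotics 1 of 10 members passed, where 21.6% of all genes did. Junb stood at 84.5, 88.2, 112 and 116 CPM on Milli-Q and at 40.3, 53.5, 61.5 and 93.6 CPM on zinc water. The zinc libraries were lower other than replicate 3, which lay within the Milli-Q range. Junb fell by 0.69 ± 0.24 on the log2 scale (SE, adjusted p = 0.0437 in edgeR), and 9 members had a negative log2 fold change with a median of -0.50, against 0.00721 over all genes. The call of Junb was lost in 12 of the 21 fits without a single library, among them those without antibiotics Milli-Q replicate 2 (adjusted p = 0.123) and antibiotics zinc replicate 4 (0.124). Without antibiotics zinc replicate 3, by contrast, 6 members passed: Junb (-0.94), Egr1 (-1.13), Dusp1 (-0.98), Zfp36 (-0.95), Jun (-0.84) and Ier2 (-0.71), with adjusted p of 0.00783 to 0.0482. That library was the highest of its group for all 10 members. Over the fits without a single library, 1273 to 3481 of all genes were called, and the share in this fit is not given. Mitochondrial counts took 1.84 to 2.67% on Milli-Q and 1.88 to 3.75% on zinc water in these mice, and enterocyte markers summed to 103 to 156 and 162 to 313 CPM, and the part of either in the result was not tested.

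In germ-free mice 1 of 10 members passed, where 11.4% of all genes did. Ier2 stood at 126, 129 and 187 CPM on Milli-Q and at 66.0, 71.5, 78.1 and 107 CPM on zinc water, with no overlap. Ier2 fell by 0.87 ± 0.22 (SE, adjusted p = 0.0205 in edgeR), a call lost without Milli-Q replicate 2 (-0.66, adjusted p = 0.168) or any of zinc replicates 1, 2 and 3 (adjusted p of 0.0624, 0.0524 and 0.0734) and with library totals (0.106). Egr1 did not overlap between the waters either (-0.94 ± 0.40, adjusted p = 0.132). Klf6 had the opposite sign (0.56 ± 0.20, adjusted p = 0.0661 in edgeR). Klf6 was called in the fits without replicate 1 on Milli-Q water (0.0176) or without replicate 4 on zinc water (0.0226). Without that zinc replicate 3414 of all genes were called, the most of any fit without a single library, and the fewest were 5. The median over the members was -0.46 against -0.02 over all genes. Mitochondrial counts took 0.599 to 1.21% on Milli-Q and 1.19 to 2.78% on zinc water in germ-free mice, and their part in the result was not tested.

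The zinc effect was not shown to differ between contexts for any member. In the test of the interaction between zinc and context 0 of 10 passed, where 0.0842% of all genes did, and Klf6 was the only member with an unadjusted p under 0.05 (0.00977, adjusted p = 0.150 in edgeR), a threshold that 20.0% of all genes passed. A test that did not pass does not show that the zinc effect is alike in the contexts. The zinc effect was also averaged over the contexts, a comparison added after the values had been seen. Here 3 of 10 members passed, where 21.6% of all genes did: Ier2 fell by 0.53 ± 0.13 (SE, adjusted p = 0.00792), Junb by 0.48 ± 0.15 (adjusted p = 0.0277) and Egr1 by 0.68 ± 0.23 (adjusted p = 0.0461). The call of Ier2 held in all 21 fits without a single library, that of Junb was lost in 7 of them and that of Egr1 in 16. The median over the members was -0.46 and that over all genes -0.01.

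The zinc values were then corrected for GC content and transcript length. Junb and Ier2 have transcripts of 62.6 and 60.9% GC, at the 98.9th and 97.3rd percentile of the genes tested, and Klf6 has 42.4%, at the 10.9th percentile. After the GC and length correction Junb stood at -0.34 in antibiotics mice (adjusted p = 0.331) and Ier2 at -0.36 in germ-free mice (adjusted p = 0.233). With this correction 0 members passed in any of the zinc comparisons, the average over contexts included. Of all 13070 genes, 2101 then passed in antibiotics mice (from 2828) and 615 in germ-free mice (from 1489). For the average over contexts 1717 passed (from 2820), and in SPF mice 17 (from 13). Calls over all genes thus fell as well, other than in SPF mice. The median over the members shrank from -0.50 to -0.29 in antibiotics mice and from -0.46 to -0.23 in germ-free mice, and from -0.27 to -0.19 in SPF mice.

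**Figure D3:**
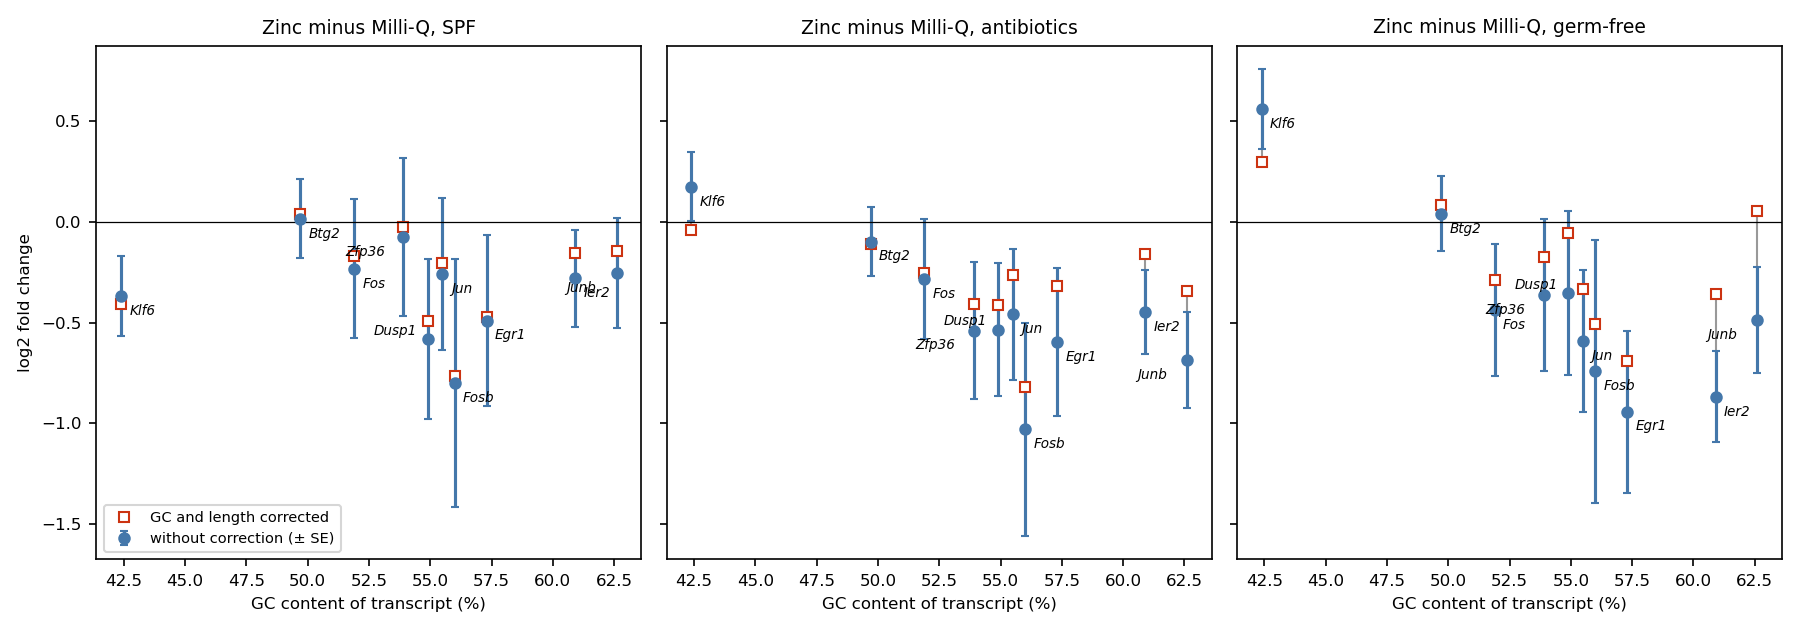
Log2 fold change of zinc against Milli-Q water for each member, plotted against the GC content of its transcript (%), before (filled, ± SE) and after (open squares) correction for GC content and transcript length, in the 3 contexts. The correction moves Junb and Ier2, at 62.6 and 60.9% GC, most toward 0 in antibiotics and germ-free mice and moves Klf6, at 42.4% GC, downward.

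Libraries of the same group differed widely and together. The within-group SD of Fosb was 0.85 on the log2 scale, at the 99.4th percentile of the 9355 genes with a mean of at least 5 CPM, whose median was 0.23. Egr1 (0.52), Dusp1 (0.51), Zfp36 (0.50), Jun (0.49) and Fos (0.45) were at the 94.9th percentile or above. Junb (0.37), Ier2 (0.33), Klf6 (0.28) and Btg2 (0.27) were nearer to other genes. Within the antibiotics zinc group, replicate 3 was the highest library for all 10 members and replicate 4 the lowest for 9, the exception being Klf6. Between these 2 libraries of identical treatment Fosb differed 6.71-fold, Dusp1 3.98-fold, Egr1 3.84-fold and Fos 3.22-fold, whereas Btg2 differed 1.95-fold and Klf6 1.09-fold. In SPF mice on zinc water replicate 2 was highest for all 10 members, and on Milli-Q water replicate 1 was highest and replicate 2 lowest for 9 members each.

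**Figure D4:**
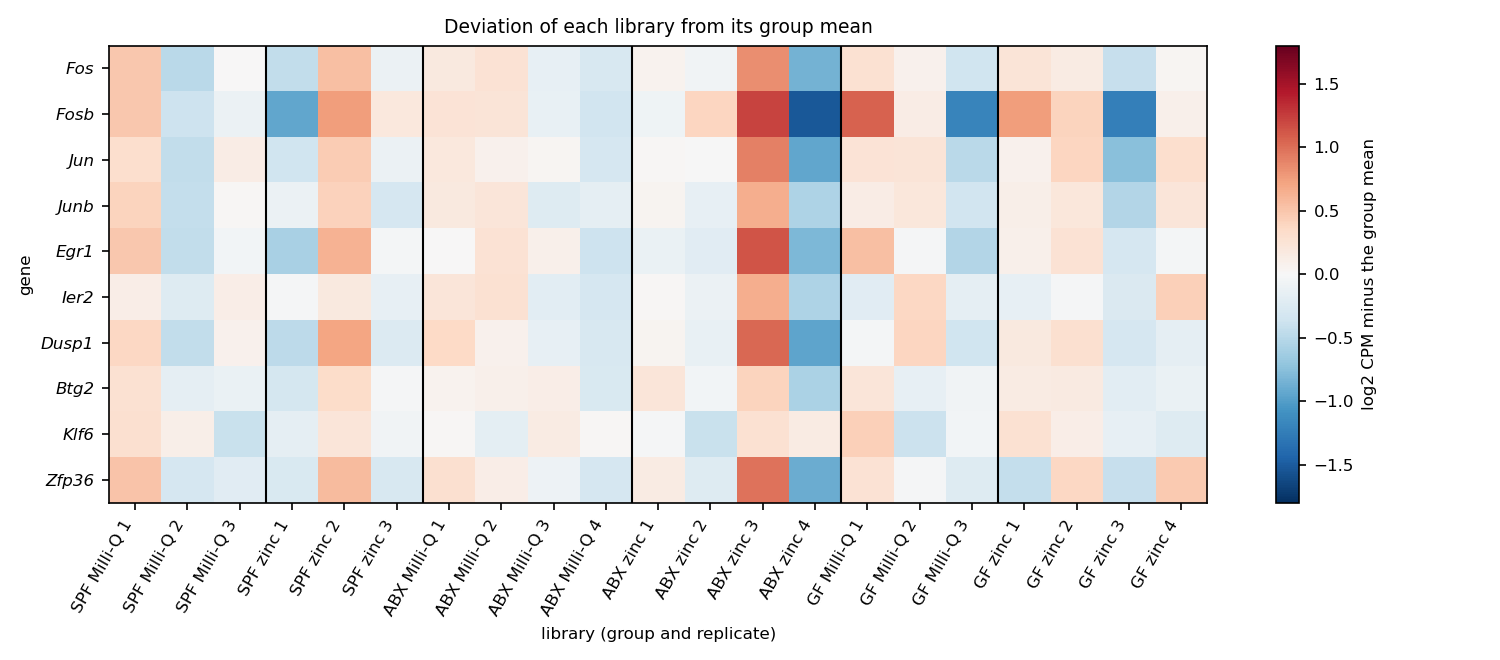
Deviation of each library from its group mean (log2 CPM) for the 10 members, with group borders as lines. Antibiotics (ABX) zinc replicates 3 and 4 deviate up and down over nearly all members, by 0.81 and -0.75 on average.

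Fos was set against each other member after the group means were removed, over the 21 libraries. Pearson's r was 0.95 for Egr1, 0.94 for Dusp1, 0.93 for Jun and Junb, 0.90 for Fosb and Btg2, 0.86 for Zfp36 and 0.75 for Ier2, with Spearman's rho of 0.67 to 0.92. These 8 of 9 relations passed in a two-sided permutation test within groups, with adjusted p-values of 6e-05 to 0.00343 for r and 7.2e-05 to 0.00477 for rho, adjusted over the 9 relations. How many of all genes would pass the same test against Fos was not determined. The unadjusted p for Jun, 1e-05, is the smallest that the permutations can give. Klf6 did not pass (r = 0.31, rho = 0.38, adjusted permutation p = 0.272 and 0.163). Without antibiotics zinc replicates 3 and 4, the libraries farthest from the median of Fos, r was still 0.75 to 0.93 for 7 of the 8 and 0.53 for Ier2. The difference between the relations of Btg2 and Klf6 with Fos was not tested. The points share library preparation and depth, and the part of these was not tested.

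Among 9345 other genes with a mean of at least 5 CPM, those most like the mean of the members within groups were Atf3 (r = 0.91), Notch4 (0.82), Atosa (0.81), Pigo (0.81) and Ppp1r15a (0.80), over 21 libraries and after removal of the group means. The middle 90% of these genes had r between -0.44 and 0.44, with a median of -0.02. Antibiotics zinc replicates 3 and 4 deviated most from their group mean (0.81 and -0.75), and these r values were not tested without them. Atf3 encodes a stress-induced transcription factor and Ppp1r15a a phosphatase subunit of the integrated stress response. Atf3 also belongs to the wider immediate early set described below. Atf3 was 1.11 to 18.2 CPM in antibiotics mice on zinc water.

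The wider immediate early set, 37 further genes chosen with the members, was described by counts. Of these, 32 could be tested. In antibiotics mice 8 were lower on zinc water and 0 higher (21.6% of all genes were called in either direction), with Nfkbia, the inhibitor of NF-kB, at -1.02 ± 0.14 (SE, adjusted p = 0.000267 in edgeR) and Klf10, a transcription factor, at -0.84 ± 0.15 (adjusted p = 0.00141). Nfkbia was 39.9 to 58.4 CPM on Milli-Q and 21.1 to 24.0 CPM on zinc water there, with no overlap. In germ-free mice 3 were lower and 1 higher on zinc water (11.4% of all genes called), with Gadd45g at -1.23 ± 0.25 and Dusp6, an ERK phosphatase, at 0.83 ± 0.18 (adjusted p of 0.00960 and 0.0105). In SPF mice 0 passed. Averaged over contexts 10 were lower and 1 higher (21.6% of all genes called), with Nfkbia at -0.71 ± 0.09 (adjusted p = 2.02e-05) and Rhob, a small GTPase, at -0.55 ± 0.12 (adjusted p = 0.00443). The median of the 32 was -0.29 in antibiotics, -0.33 in germ-free and -0.17 in SPF mice.

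Between contexts this wider set was mixed. Germ-free against antibiotics mice had 8 lower and 2 higher genes on Milli-Q water (21.9% of all genes called), with Klf4 at -0.85 ± 0.18 (SE) and Dusp5, a phosphatase of nuclear ERK, at 1.31 ± 0.26 (adjusted p of 0.00173 and 0.000905 in edgeR). On zinc water 2 were lower and 3 higher (12.9% of all genes called), with Ccn1, a matricellular protein, at -2.09 ± 0.37 and Btg1, a relative of Btg2, at 0.50 ± 0.12 (adjusted p of 0.000819 and 0.00622). Against SPF mice, germ-free mice had 7 lower and 3 higher on Milli-Q water (24% of all genes called), with Fosl2, an AP-1 subunit, at -0.76 ± 0.16 and Jund, another, at 1.11 ± 0.21 (adjusted p of 0.00158 and 0.000575), and 1 lower on zinc water (5.76% called), Ccn1 (-1.64 ± 0.39, adjusted p = 0.0178). Antibiotics against SPF mice had 0 on Milli-Q and 3 lower on zinc water (8.65% of all genes called), among them Fosl2 and Klf10 at -0.77 ± 0.15 and -0.83 ± 0.16 (adjusted p of 0.00360 and 0.00463). These changes are relative to the bulk of genes, whose median shifts to -0.99 with library totals in germ-free against SPF mice on Milli-Q water.

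The kinases and factors upstream, 21 genes that include Srf, Creb1 and the ERK, p38 and JNK cascades, were all tested. In antibiotics mice 3 were higher and 1 lower on zinc water (21.6% of all genes called), with Map2k1, the kinase MEK1, at 0.54 ± 0.13 (SE, adjusted p = 0.00529 in edgeR). In germ-free mice 4 were higher and 1 lower (11.4% of all genes called), with Rps6ka3, the ERK-activated kinase RSK2, at 1.04 ± 0.21 (adjusted p = 0.00960). In germ-free against SPF mice 3 were higher and 5 lower on Milli-Q water (24% of all genes called), with Mapk3 at 0.88 ± 0.13 (adjusted p = 6.68e-05), and 1 was higher on zinc water (5.76% called), Mapk3 at 0.60 ± 0.13 (adjusted p = 0.00729). In germ-free against antibiotics mice 3 were higher and 3 lower on Milli-Q and 2 were higher on zinc water (21.9 and 12.9% of all genes called). Averaged over contexts 4 were higher and 1 lower on zinc water (21.6% of all genes called), with Rps6ka3 at 0.66 ± 0.12 (adjusted p = 0.00105). In zinc against Milli-Q water of SPF mice, and in antibiotics against SPF mice, 0 passed. Mapk3 was 229 to 254 CPM in germ-free and 122 to 143 CPM in the SPF group, both on Milli-Q water.

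Heat shock genes, which also respond to stress of cells, were described in the same way, and 11 of 12 were tested. In antibiotics mice 5 were higher and 0 lower on zinc water (21.6% of all genes called), with Hspe1, the mitochondrial co-chaperonin, at 0.70 ± 0.15 (SE, adjusted p = 0.00265 in edgeR), whereas the members had a median of -0.50 there. On zinc water 3 were higher in antibiotics than in SPF mice (8.65% of all genes called), with Hspa8, the constitutive HSP70 chaperone, at 0.98 ± 0.19 (adjusted p = 0.00463), and Bag3, an HSP70 co-chaperone, stood at 0.74 ± 0.17 in germ-free against SPF mice on Milli-Q water (adjusted p = 0.00298), where 24% of all genes were called. In germ-free against antibiotics mice Bag3 alone was called on Milli-Q water, higher by 0.59 ± 0.16 (adjusted p = 0.00944, 21.9% of all genes called), and on zinc water 1 was higher and 3 lower (12.9% called), with Hspe1 at -0.71 ± 0.15 (adjusted p = 0.00224). Averaged over contexts 2 were higher on zinc water (21.6% of all genes called), with Hspd1, the mitochondrial chaperonin, at 0.33 ± 0.09 (adjusted p = 0.0126), and in the other comparisons between 2 groups 0 passed. The summed heat shock level was 2389 to 3700 CPM in antibiotics mice on zinc water and 1499 to 2350 CPM on Milli-Q water. The library with the highest sum, antibiotics zinc replicate 3, was also the highest in its group for all 10 members.

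The members lie on 8 chromosomes in GRCm39. Fos is at chr12:85520658-85524047, Fosb at chr7:19036621-19043976, Jun at chr4:94937271-94940459, Junb at chr8:85701113-85705359, Dusp1 at chr17:26724564-26781102, Btg2 at chr1:134002908-134015033, Klf6 at chr13:5911481-5920393 and Zfp36 at chr7:28076209-28079710. Egr1 is at chr18:34992876-34998049 and Ier2 at chr8:85387960-85389483. The table gives 1 count per gene, so no isoform is distinguished. Jun lies opposite the antisense gene Junos, Junb opposite Prdx2, Btg2 opposite Gm31974, Zfp36 opposite Gm44710 and Dusp1 opposite Ergic1, and Gm50274 and Gm50275 overlap Dusp1 on its own strand. The library kit is stranded, but whether counting used the strand is not stated, so reads of these neighbours could be counted with the member.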

How the data were processed

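Paneth cells sorted from mouse small intestine were profiled by stranded mRNA sequencing. The authors deposited 1 table of raw gene counts, not normalized, with 21 columns that each matched 1 library's labels and 0 that matched none. The submitters' processing notes name FastQC 0.12.0, STAR 2.7.0a, DESeq2 and the build mm39. The study's methods also name Salmon, but neither source says which tool made the counts or how strand and multiply mapped reads were treated. Depth was 9888174 to 16896714 counts per library, which sets the precision of low genes.

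Of 55414 identifiers, 54749 matched GENCODE M39 and took its symbols. Genes with enough counts (filterByExpr, 13070 genes) were scaled by TMM and fitted in edgeR 4.0.16 (robust quasi-likelihood test, R 4.3.3) over all 6 groups, with contrasts between groups and Benjamini-Hochberg adjustment over all genes, called at 0.05. P-values set a difference between groups against the spread between libraries of the same group, which the main fit estimated jointly over all libraries. Alternatives were RLE factors, library totals, DESeq2 1.42.0, no filter, a replicate block, only the compared groups and each library left out. Germ-free against antibiotics, the average zinc effect, and the GC and length correction were added after seeing the data. Scripts were tested on simulated data. Members and gene lists were chosen with earlier results of these data known. All 10 members are named, and in each comparison the called genes with the lowest p (2 of the wider immediate early list, 1 upstream, 1 heat shock), together with the 5 genes whose within-group pattern was most like the mean of the members.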

Additional observations from a re-analysis of the deposited data

Results flagged for a closer look

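In antibiotics mice on Milli-Q water, Btg2 stood at 86.99 CPM in replicate 4, apart from 110, 113 and 115 CPM in the other libraries. Its gap to the nearest library was 0.841 of the range of the group, above Dixon's critical value for 4 samples. This was 1 of 30 combinations of gene and group tested, and chance flags about 1 in 20.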

How the results depend on the processing

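Counts of calls that left the range of 1.5 times the main count are listed here, and the cause was not tested. Where members are listed without a number of all genes, that number stayed within 1.5 times its main count. The shares of all genes in the main fit are given with each comparison above. Without the filter, or with only the compared groups fitted, another number of genes was tested, so those shares do not carry over. With library totals genes called came to 11140 for the 6-group test (from 6448), 1418 for zinc after antibiotics (from 2828), 742 for zinc in germ-free (from 1489), 589 for antibiotics/SPF on zinc (from 1130), 9311 for germ-free/SPF on Milli-Q (from 3134), 6269 for germ-free/SPF on zinc (from 753), 1 for the interaction (from 11), 10311 for germ-free/antibiotics on Milli-Q (from 2867), 8609 for germ-free/antibiotics on zinc (from 1684) and 1257 for zinc averaged (from 2820). Here members called came to 0 for zinc in germ-free (from 1), 9 for germ-free/SPF on Milli-Q (from 1), 10 for germ-free/SPF on zinc (from 0), 10 for germ-free/antibiotics on Milli-Q (from 4) and 10 for germ-free/antibiotics on zinc (from 5). With DESeq2 genes called came to 40 for zinc in SPF (from 13), 50 for antibiotics/SPF on Milli-Q (from 15), 1212 for germ-free/SPF on zinc (from 753) and 492 for the interaction (from 11). Here members called came to 2 for zinc in germ-free (from 1) and 1 for germ-free/SPF on zinc (from 0). Without the filter on low counts genes called came to 269 for zinc in SPF (from 13), 406 for antibiotics/SPF on Milli-Q (from 15) and 1009 for the interaction (from 11). Here members called came to 1 for zinc in SPF (from 0), 7 for zinc after antibiotics (from 1), 5 for zinc in germ-free (from 1), 6 for antibiotics/SPF on Milli-Q (from 0), 2 for antibiotics/SPF on zinc (from 0), 6 for germ-free/SPF on Milli-Q (from 1), 5 for germ-free/SPF on zinc (from 0), 1 for the interaction (from 0), 7 for germ-free/antibiotics on Milli-Q (from 4), 8 for germ-free/antibiotics on zinc (from 5) and 8 for zinc averaged (from 3). With only the compared groups fitted genes called came to 24 for zinc in SPF (from 13), 1 for zinc in germ-free (from 1489), 27 for antibiotics/SPF on Milli-Q (from 15), 2120 for antibiotics/SPF on zinc (from 1130), 57 for germ-free/SPF on zinc (from 753) and 904 for germ-free/antibiotics on zinc (from 1684). Here members called came to 0 for zinc in germ-free (from 1), 3 for germ-free/SPF on Milli-Q (from 1), 7 for germ-free/antibiotics on Milli-Q (from 4) and 1 for germ-free/antibiotics on zinc (from 5). With the replicate number as a block genes called came to 9 for antibiotics/SPF on Milli-Q (from 15) and 1 for the interaction (from 11). Here members called came to 0 for zinc after antibiotics (from 1), 0 for zinc in germ-free (from 1) and 2 for germ-free/antibiotics on zinc (from 5). With the GC and length correction genes called came to 615 for zinc in germ-free (from 1489), 19 for the interaction (from 11) and 1717 for zinc averaged (from 2820). Here members called came to 0 for zinc after antibiotics (from 1), 0 for zinc in germ-free (from 1) and 0 for zinc averaged (from 3). With RLE size factors genes called came to 2 for the interaction (from 11). Scaling by library totals alone also turned the sign of the log2 fold change of Btg2, germ-free against SPF on Milli-Q water (-0.94), Btg2, germ-free against SPF on zinc water (-0.62), Btg2, germ-free against antibiotics on Milli-Q water (-1.02), Btg2, germ-free against antibiotics on zinc water (-0.60) and Klf6, germ-free against antibiotics on zinc water (-0.65), around the shifted median of all genes. Leaving out each library in turn gave 5190 to 7442 genes and 8 to 9 members for the 6-group test, 3 to 18 genes and 0 members for zinc in SPF, 1273 to 3481 genes and 0 to 6 members for zinc after antibiotics, 5 to 3414 genes and 0 to 2 members for zinc in germ-free, 7 to 47 genes and 0 to 1 members for antibiotics/SPF on Milli-Q, 239 to 1605 genes and 0 members for antibiotics/SPF on zinc, 1635 to 3562 genes and 1 to 2 members for germ-free/SPF on Milli-Q, 69 to 1626 genes and 0 to 2 members for germ-free/SPF on zinc, 0 to 1093 genes and 0 members for the interaction, 1545 to 3293 genes and 0 to 7 members for germ-free/antibiotics on Milli-Q, 1172 to 1815 genes and 1 to 6 members for germ-free/antibiotics on zinc and 1913 to 4147 genes and 1 to 6 members for zinc averaged.

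Correlations of same-numbered libraries between waters ran from -0.17 to 0.23, and 8 of 20 samples correlated best with their own number. How many would do so by chance was not determined. Whether the replicate numbers pair the samples could not be decided from these values. With the block Junb after antibiotics had an adjusted p of 0.0611 and Ier2 in germ-free mice of 0.0501. The 3 germ-free Milli-Q libraries are numbered differently in their titles and descriptions, and the block used the titles. The relations of members with Fos gave 8 calls under every alternative and in every fit without a library. Of 690 member log2 fold changes under the other alternatives, 29 differed in sign from the main value, and of 2100 without a library 60 did, none of the latter called in either fit. Groups held 3 or 4 libraries, and the within-group SD reached 0.85 on the log2 scale (Fosb).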
